A study of Oryza sativa with 4 samples.

Results

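The rice miRNA family mir1425 and 8 further families, mir1320, mir1427, mir1846, mir1859, mir2055, mir2864, mir5513 and mir5827, were followed in small RNA libraries of Pokkali, a salt-tolerant rice cultivar. They are grouped here as families that are mainly known from rice. Their entries were taken from the deposited lists by the family number in the miRBase name, whatever letter or arm followed it. Counting each mature sequence a single time, the 9 families had 9 sequences, which was 9 of the 53 sequences with a known family name and 9 of all 783 sequences listed. Seedlings were grown hydroponically, and on day 9 they were given 1.5% NaCl through the root or no NaCl, and root and shoot were harvested 9 h later. The groups are NaCl-treated shoot (TS), control shoot (CS), NaCl-treated root (TR) and control root (CR), all of cv. Pokkali, with 1 library per group. There is therefore no replicate error. All intervals are 95% intervals from the read counts alone, so they hold no variation between plants, and each ratio compares 2 libraries. Reads from a PCR-amplified library are not independent molecules, so the intervals may be too narrow even for counting error. The labels do not say how many seedlings went into a library, and a whole root or shoot holds many cell types, so fewer cells of a type and less miRNA per cell cannot be told apart.

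Plant miRNAs are cut by the Dicer-like enzyme DCL1 from a hairpin precursor as a duplex of the miRNA and its partner strand, the miRNA*. The miRNA is loaded into an Argonaute protein, mostly AGO1, which favours a 5′ uridine, while the miRNA* is usually degraded. The loaded miRNA pairs with almost complementary mRNAs, which are then cleaved or less translated. miR1425 of rice is known to target mRNAs of pentatricopeptide repeat proteins, RNA-binding proteins of mitochondria and chloroplasts, among them relatives of the fertility restorer (Rf) genes that act on cytoplasmic male sterility. Families found in a single lineage, as opposed to those shared by many land plants, are commonly encoded at few loci and expressed at low levels.

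The mature sequences are shown because each family was represented by a single sequence and the counts below belong to it. They are written 5′ to 3′ as the lists give them, with T for U, and the capitals mark bases 2 to 8, the seed.
mir1425: tAGGATTCaatccttgctgct
mir5827: tTTGTTGCaatttggactacc
mir2864: tTTTGCTGcccttgttttgca
mir2055: tTTCCTTGggaaggtggtttc
mir1320: tGTAAAATtcattcgttccaa
mir1859: tTTCCTATgacgtccattccaa
mir1427: tGCGGAACcgtgcggtggcgc
mir1846: tCCCACCGagcagccggatctc
mir5513: tAACAAAGgacaacagactga
All 9 began with T, against 34 of the 44 sequences of the other known families (77.3%) and 419 of the 730 predicted sequences (57.4%). Of the 9, 7 were 21 nt long, and mir1846 and mir1859 were 22 nt long. No seed was shared among the 9 or with another listed sequence. The G+C content ranged between 28.6% in mir1320 and 76.2% in mir1427.

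The lists held 386 entries in TS, 445 in CS, 289 in TR and 172 in CR, 1 entry for each hairpin locus, with mature sequences of 20 to 22 nt and at least 2 reads. Abundance was given in RPM, the reads of a sequence scaled to 1000000 of the reads used for prediction, which numbered 9765004 in TS, 13116913 in CS, 12126876 in TR and 6887961 in CR. A single read thus equalled between 0.0762 RPM in CS and 0.145 RPM in CR. A sequence that was not among the entries of a library may still have been sequenced there, so its count was not taken as 0 and no ratio was formed.

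Shoot listed all 9 families and root listed 2. TS held 6 of them among 39 known sequences, CS 6 among 37, TR 1 among 26 and CR 2 among 31. The root lists were also shorter as a whole, with 224 sequences in TR and 122 in CR against 311 in TS and 353 in CS. Only mir1425 was listed in all 4 libraries. mir5827 was listed in TS, CS and CR, and mir2864 in TS and CS. The other 6 were each listed in 1 library, with mir1846, mir1859 and mir2055 in TS and mir1320, mir1427 and mir5513 in CS. These 6 had 2 to 5 reads each against a minimum of 2 in the lists. TR listed fewer of the families than TS although more of its reads were used for prediction, and its whole list was shorter too.

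mir1425 made up nearly all reads of the 9 families. It had 99.4% of their reads in TS, 99.0% in CS, 100% in TR and 99.2% in CR. The other 8 families together had 38 reads in TS, 33 in CS, 0 in TR and 7 in CR, where the 0 stands for the absence of entries.

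**Figure D1:**
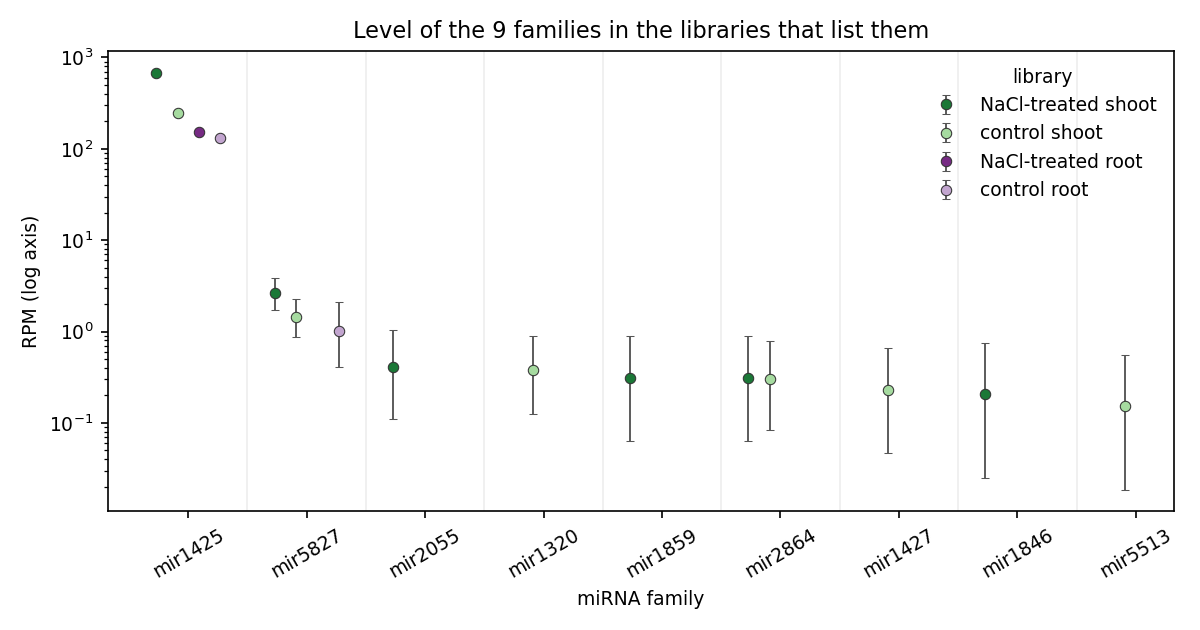
Level of each family in RPM (vertical axis, log scale) in every library that listed it; points are single libraries, coloured by group, and bars are exact Poisson 95% intervals. mir1425 lies between 131 and 681 RPM, and no value of the other 8 families exceeds 2.66 RPM.

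mir1425 had 6653 reads in TS, or 681 RPM (exact Poisson interval 665 to 698). It had 3271 reads in CS, or 249 RPM (241 to 258). In root it had 1871 reads in TR, or 154 RPM (147 to 161), and 901 reads in CR, or 131 RPM (122 to 140). The order was TS, CS, TR and CR, and no neighbours in that order had overlapping counting intervals, but with 1 library each the spread between plants is unknown. mir1425 ranked among the leading sequences of every list: it had rank 2 of 311 sequences in TS, rank 4 of 353 in CS, rank 3 of 224 in TR and rank 3 of 122 in CR. Its share of all listed reads was 21.5% in TS (exact binomial interval 21.1% to 22.0%), 5.38% in CS (5.20% to 5.56%), 4.68% in TR (4.47% to 4.89%) and 2.71% in CR (2.54% to 2.89%). Predicted sequences weigh unevenly on this share, as sequences with a known family had 28091 of 30915 listed reads in TS and 28430 of 60792 in CS. Of the reads with a known family alone, mir1425 had 23.7% in TS, 11.5% in CS, 4.91% in TR and 2.79% in CR.

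In shoot, the level of mir1425 in TS was 2.73 times that in CS (exact conditional interval 2.62 to 2.85, log2 ratio 1.45). A sequence was called higher where the ratio was at least 2 and the interval excluded 1, and mir1425 met this rule. Of the 96 sequences listed in both shoot libraries, 22.9% were called higher in TS, so a call of this kind was common. It was more common among the 32 with a known family, of which 15 were called higher. The ratio of mir1425 came at rank 18 of the 96, and at rank 11 of the 32 with a known family, and the median log2 ratio was 0.43 over the 96 and 0.96 over the 32. These ranks do not depend on the denominator. The call itself was lost with the TMM factors of edgeR, which put the ratio at 1.91, and kept under the 6 other scalings (2.03 to 4.0).

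In root, the ratio of mir1425 in TR over CR was 1.18 (1.09 to 1.28, log2 ratio 0.24). Its interval lies above 1, but the ratio did not meet the fold rule. Of the 46 sequences listed in both root libraries, 10.9% were called higher in TR. The ratio came at rank 10 of the 46 and at rank 5 of the 24 with a known family, while the median log2 ratio of the 46 was -0.32. The size of the ratio depended on the denominator, since it was 1.97 with raw reads and between 1.47 and 1.92 under the other 6 scalings. Of the raw reads, 53.9% were used for prediction in TR and 32.4% in CR, and this gap is the whole of the shift between those 2 denominators.

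**Figure D2:**
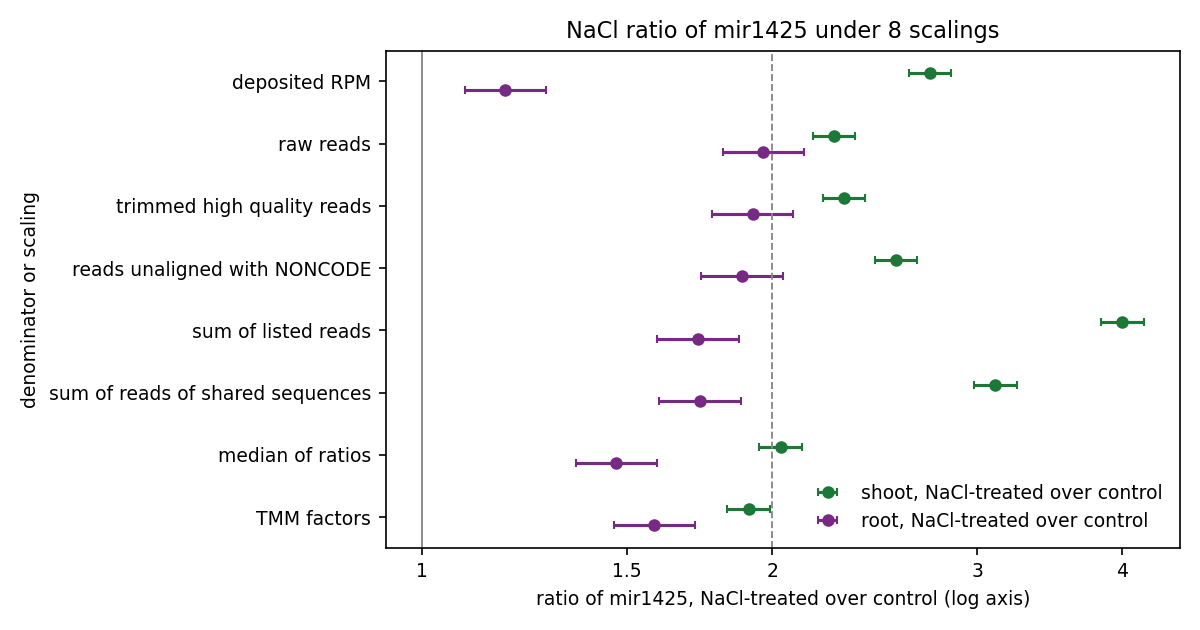
Ratio of mir1425 in NaCl-treated over control (horizontal axis, log scale) in shoot (upper point of each row) and root (lower point), under the deposited RPM and 7 other scalings (rows). Bars are exact conditional 95% intervals, the solid line marks a ratio of 1 and the dashed line the fold threshold of 2; the ratio in root is 1.18 with the deposited RPM and 1.97 with raw reads.

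The log2 ratio of mir1425 was larger in shoot than in root by 1.21 (Wald interval 1.08 to 1.34, from the 4 read counts). This difference was at least 1 with the deposited RPM and with the sum of listed reads as the denominator, and under 1 in the other 6 scalings, where it lay between 0.20 with raw reads and 0.84. Among the 19 known sequences that all 4 libraries listed, the difference of mir1425 came at rank 9 from the highest, close to their median of 1.15.

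Between tissues, mir1425 was 4.42-fold higher in TS than in TR (4.19 to 4.65), which met the rule and kept meeting it under all 7 other scalings (2.65 to 7.60). Of the 47 sequences listed in both of these libraries, 31.9% were called higher in TS. Without NaCl, the ratio of CS over CR was 1.91 (1.77 to 2.05), just under the fold threshold. Of the 50 sequences shared by CS and CR, 22.0% were called higher in CS. With raw reads, trimmed reads, reads unaligned with NONCODE or the reads of shared sequences as the denominator, mir1425 would be called higher in CS as well (2.91 to 4.09), with between 38.0% and 46.0% of the shared sequences called higher under these denominators. The ratio of mir1425 came at rank 10 of 47 in TS over TR and at rank 15 of 50 in CS over CR. Among known families alone it came at rank 9 of 20 in TS over TR, where 12 of the 20 were called higher and the median log2 ratio was 1.79, and at rank 9 of 23 in CS over CR. These comparisons share their libraries with those of NaCl against control, so they are not independent of them.

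**Figure D3:**
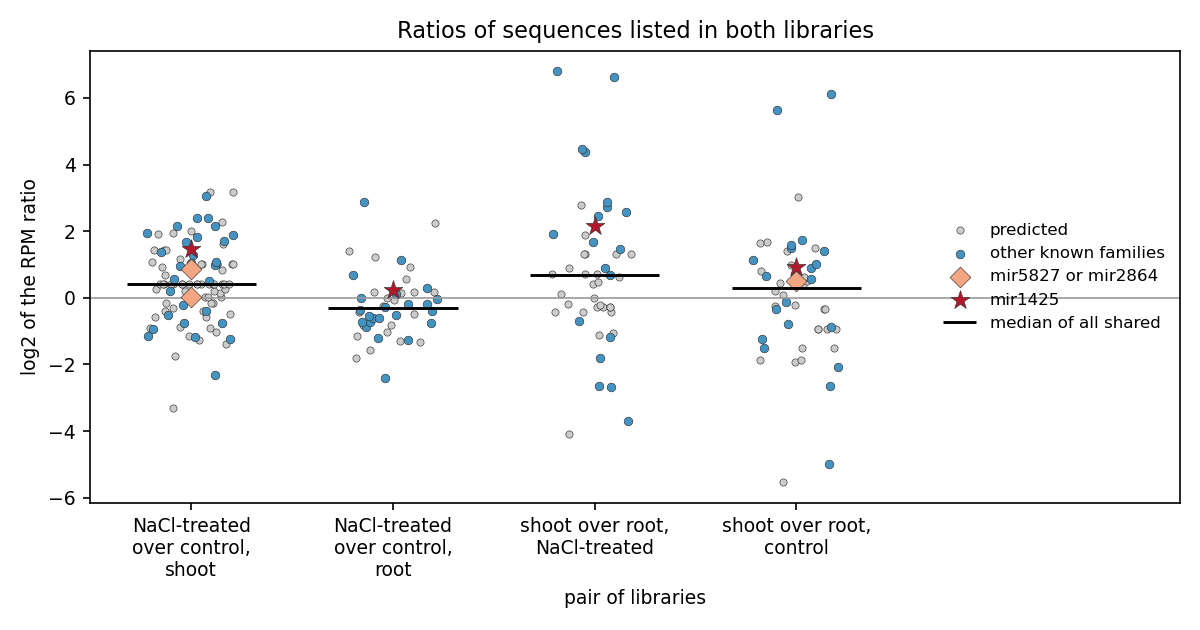
log2 of the RPM ratio (vertical axis) of every sequence listed in both libraries of a pair (columns); the star is mir1425, diamonds are mir5827 or mir2864, small points are other known (blue) and predicted (grey) sequences, and the black line is the median of all. mir1425 lies above the median of all shared sequences in each of the 4 pairs, by 1.02 in TS over CS, 0.55 in TR over CR, 1.47 in TS over TR and 0.63 in CS over CR. Above the median of the sequences with a known family it lies by 0.49, 0.61, 0.35 and 0.28, in the same order.

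The only listed locus of mir1425 lies on chromosome 5 of the rice genome (IRGSP-1.0), + strand, with the mature sequence at chr5:8862162-8862182 and the hairpin at chr5:8862144-8862253. In the lists, the deposited start of a mature sequence is 1 base higher than its place in the hairpin's letters and the deposited hairpin coordinates give, in all 1243 entries where this could be compared, the 9 families included. Which of these deposited coordinates is shifted could not be settled here, so the positions within a hairpin given below come from its letters. The locus was the sequence's single match in this reference genome, so all of its reads were assigned to this locus. The number of copies in Pokkali itself was not examined. Whether the loci named here lie in annotated genes was not analysed. The hairpin is shown because it carries both strands of the duplex. Capitals mark the mature sequence, at positions 18 to 38 on the 5′ arm, and the stretch covered by miRNA* reads, at positions 71 to 95 on the 3′ arm.
mir1425 hairpin: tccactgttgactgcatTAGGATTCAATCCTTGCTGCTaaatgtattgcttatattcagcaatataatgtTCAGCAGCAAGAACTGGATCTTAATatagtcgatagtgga
The hairpin was 110 nt long, with a deposited folding energy of -55.5 kcal/mol, and RNAfold gave -55.0 kcal/mol for the same letters. In the deposited structure 81.8% of its bases were paired, and 3 of the 21 bases of mir1425 were unpaired. All 3 lie next to each other, at the inner loop that separates the pairs of the mature sequence into 2 blocks.

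miRNA* reads of mir1425 were few but came from all 4 libraries. There were 9 in TS, 8 in CS, 4 in TR and 1 in CR, a total of 22 from 5 sequences. The 5 are shown because they fall into 2 registers on the 3′ arm, named here by the positions of their first and last base in the hairpin.
positions 75 to 95: cagcaagaactggatcttaat
positions 75 to 94: cagcaagaactggatcttaa
positions 72 to 93: cagcagcaagaactggatctta
positions 72 to 91: cagcagcaagaactggatct
positions 71 to 91: tcagcagcaagaactggatct
The sequence at 75 to 95 had 13 of the 22 reads, with 5 in TS, 5 in CS, 3 in TR and none recorded in CR. Paired with mir1425, it leaves a 3′ overhang of 2 nt at both ends, the form in which Dicer-like enzymes usually release a duplex. Together with the sequence at 75 to 94, which is shorter by its last base, this register had 15 reads, with 6 in TS, 5 in CS, 3 in TR and 1 in CR. The other register began 3 or more bases closer to the loop, at position 71 or 72, and had 7 reads of 3 sequences, with 3 in TS, 3 in CS, 1 in TR and none recorded in CR. In this register neither strand had a 3′ overhang. The 3′ end of the sequence at 72 to 93 lies opposite the first base of mir1425, those of the other 2 sequences stop 2 nt short of it, and the 3′ end of mir1425 stops 1 nt short of the first base of each of the 3. Both registers were thus seen in both shoot libraries and in TR. No mature sequence of mir1425 with another end was listed.

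The miRNA* share of the reads of this hairpin was 0.135% in TS (exact binomial interval 0.0618% to 0.256%), 0.244% in CS (0.105% to 0.480%), 0.213% in TR (0.0582% to 0.545%) and 0.111% in CR (0.00281% to 0.616%). The intervals overlap, and a difference between libraries was not tested at these counts. Among the known sequences of TS with a single genome match, at least 100 reads and any miRNA* read, 5 in number, the share of mir1425 was the lowest and the median was 1.65%. In CS it was the lowest of 3, and in TR and CR no other sequence met these conditions. Since a miRNA* read was required, a sequence with fewer mature reads cannot show so low a share. Sequences without any miRNA* read were left out. The order therefore depends on read depth and on these conditions, and it was not taken as a trait of mir1425.

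**Figure D4:**
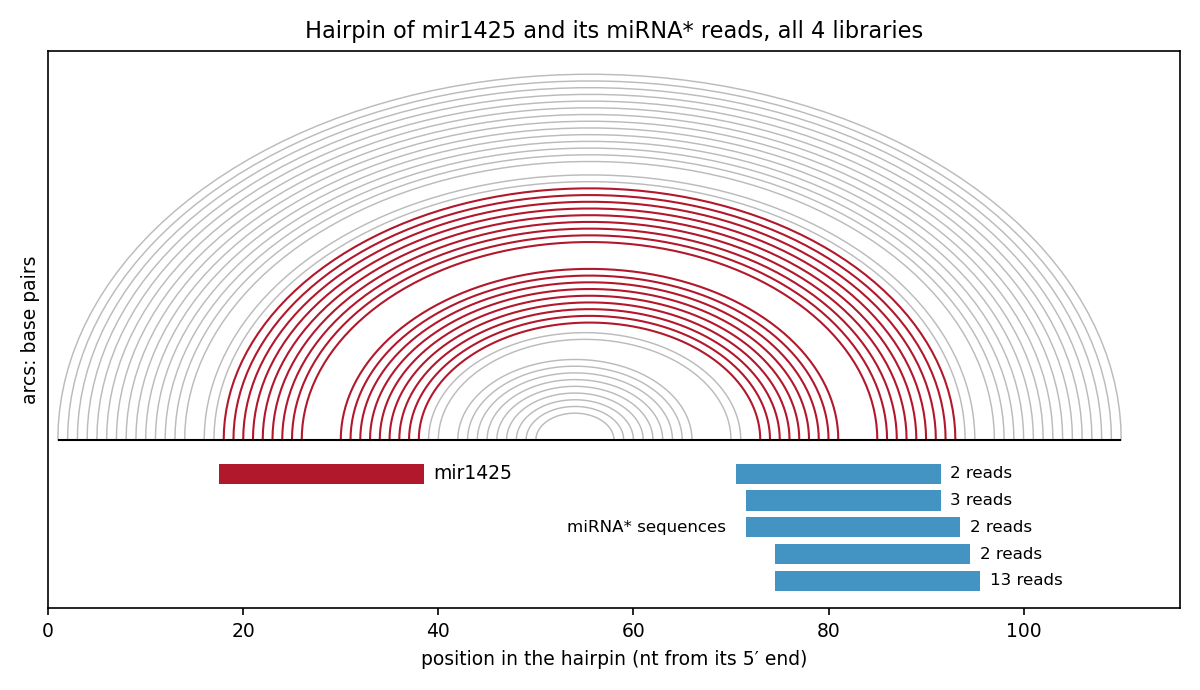
Base pairs of the deposited mir1425 hairpin drawn as arcs over the position in the hairpin (horizontal axis, nt); red arcs start in mir1425, the red bar marks mir1425 and each blue bar a miRNA* sequence with its reads summed over the 4 libraries. The gap in the red arcs is the run of 3 unpaired bases, and the lowest blue bar, at positions 75 to 95, has 13 reads.

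mir5827 was the next in abundance. It had 26 reads in TS, or 2.66 RPM (1.74 to 3.90). It had 19 reads in CS, or 1.45 RPM (0.872 to 2.26), and 7 reads in CR, or 1.02 RPM (0.409 to 2.09), and was not among the TR entries. The 3 intervals overlap, which does not by itself show equal levels, and no ratio of TS over CR was formed. The ratio in TS over CS was 1.84 (0.979 to 3.51), which did not meet the rule, and it was called higher under 2 of the 7 other scalings, with the sum of listed reads (2.69) and with the reads of shared sequences (2.09). In CS over CR the ratio was 1.43 (0.574 to 4.01). Its locus lies on chromosome 4, - strand, with the mature sequence at chr4:30082047-30082067, on the 5′ arm of a 196 nt hairpin of -88.6 kcal/mol, and 1 of its 21 bases was unpaired. Its only miRNA* read came from CS and left no 3′ overhang, as both 3′ ends stop short of the partner of the other strand's first base, by 2 nt for the miRNA* and 4 nt for mir5827. The hairpin is shown with mir5827 at positions 21 to 41 and this miRNA*, at positions 153 to 174, in capitals, since they lie at opposite ends of a long loop region.
mir5827 hairpin: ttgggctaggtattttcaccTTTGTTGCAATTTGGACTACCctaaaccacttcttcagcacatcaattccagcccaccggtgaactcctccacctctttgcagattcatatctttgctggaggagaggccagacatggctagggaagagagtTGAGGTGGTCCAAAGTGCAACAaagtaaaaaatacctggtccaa

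mir2864 had 3 reads in TS, or 0.307 RPM (0.0634 to 0.898), and 4 reads in CS, or 0.305 RPM (0.0831 to 0.781). The ratio was 1.01 (0.148 to 5.96), an interval that reaches past the fold threshold in both directions. Its locus lies on chromosome 12, - strand, with the mature sequence at chr12:25664791-25664811 on the 5′ arm of a 100 nt hairpin of -49.6 kcal/mol. No miRNA* read was recorded for it.

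Of the families listed in TS alone, mir2055 had 4 reads (0.410 RPM, 0.112 to 1.05), mir1859 had 3 reads (0.307 RPM, 0.0634 to 0.898) and mir1846 had 2 reads (0.205 RPM, 0.0248 to 0.740). mir1846 lies on chromosome 1, + strand, at chr1:39637075-39637096, and it is shown with its hairpin because 1 miRNA* read accompanied its 2 mature reads. Capitals mark mir1846 at positions 6 to 27 and the miRNA* at positions 81 to 101.
mir1846 hairpin: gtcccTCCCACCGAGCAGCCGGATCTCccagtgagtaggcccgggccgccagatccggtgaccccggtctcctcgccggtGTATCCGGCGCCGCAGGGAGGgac
The miRNA* of mir1846 left a 3′ overhang of 2 nt at its own end and 0 nt at the 3′ end of mir1846, and 6 of the 22 bases of mir1846 were unpaired, the most among the 9. mir1859 lies on the same chromosome, - strand, at chr1:673288-673309, on the 3′ arm of a 157 nt hairpin of -73.5 kcal/mol. mir2055 lies on chromosome 9, - strand, at chr9:431438-431458, on the 3′ arm of a 100 nt hairpin of -39.3 kcal/mol, the weakest energy of the 9. Its sequence matched the genome at 3 places, of which the lists gave 1, so its reads cannot be assigned to this locus alone.

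Of the families listed in CS alone, mir1320 had 5 reads (0.381 RPM, 0.124 to 0.890), mir1427 had 3 reads (0.229 RPM, 0.0472 to 0.668) and mir5513 had 2 reads (0.152 RPM, 0.0185 to 0.551). All 3 had their mature sequence on the 3′ arm, and none had a recorded miRNA* read. mir1320 lies on chromosome 6, - strand, at chr6:5073521-5073541, in the shortest hairpin of the 9, of 91 nt. mir1427 lies on chromosome 8, + strand, at chr8:9192766-9192786, in the longest, of 204 nt, with the lowest deposited energy, -146.3 kcal/mol, a G+C content of 66.2% and no unpaired base in the mature sequence. mir5513 lies on chromosome 3, + strand, at chr3:34008118-34008138, in a hairpin of 161 nt and -87.8 kcal/mol.

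At 2 of the 9 loci another library listed a shifted mature sequence without a family name. These are shown because, counted by name alone, such reads are missed.
mir1320 in CS: tgtaaaattcattcgttccaa
shifted entry in CR: gtaaaattcattcgttccaat
mir2055 in TS: tttccttgggaaggtggtttc
shifted entry in CS: tttttccttgggaaggtggtt
The entry of CR at the mir1320 hairpin began 1 base after mir1320, shared 20 bases with it and had 11 reads, or 1.60 RPM (0.797 to 2.86), with 1 miRNA* read. Thus the mir1320 hairpin was listed in root as well as in shoot, and with more reads in CR than the named sequence had in CS. The entry of CS at the mir2055 hairpin began 2 bases before mir2055, shared 19 bases with it and had 4 reads, or 0.305 RPM (0.0831 to 0.781), beside the 4 reads of mir2055 in TS. No other entry overlapped a hairpin of the 9.

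The 9 hairpins lay within the range of the other known families in length and in energy per 100 nt. Their median length was 110 nt against 114.5 nt over 84 loci of the other known families, and their median energy per 100 nt was -49.6 kcal/mol against -51.9 kcal/mol, with -39.8 kcal/mol over 846 predicted loci. The deposited energies of the 9 lay within 3.31 kcal/mol of a refolding with RNAfold. In hairpin G+C, mir1425 (36.4%), mir5513 (37.3%) and mir1320 (37.4%) lay below the lowest locus of the other known families, at 40.8%. The median G+C was 44.6% over the 9 hairpins and 50.8% over those 84 loci. Copy number and abundance are described here without a test. A single genome match was found for 8 of the 9 sequences, against 21 of the 44 sequences of the other known families. miRNA* reads were recorded for 3 of the 9 and for 33 of the 44 (75.0%). A single library listed 6 of the 9 but 9 of the 44 (20.5%), and all 4 libraries listed 1 of the 9 and 18 of the 44 (40.9%). Fewer than 10 reads in every library were seen for 7 of the 9, against 5 of the 44 (11.4%) and 654 of the 730 predicted sequences (89.6%). The median of the highest count was 4 reads over the 9, 74.5 over the 44 and 2 over the predicted sequences. A short list of other families associated with grasses, chosen with earlier results of these data known, was also sparse. Of mir528, mir2118, mir2275 and mir2871, 3 were listed, with 4 sequences of 2 to 20 reads, and none was in all 4 libraries. Of these, miR2118 and miR2275 are known to set off phased secondary siRNAs in reproductive tissue of grasses.

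**Figure D5:**
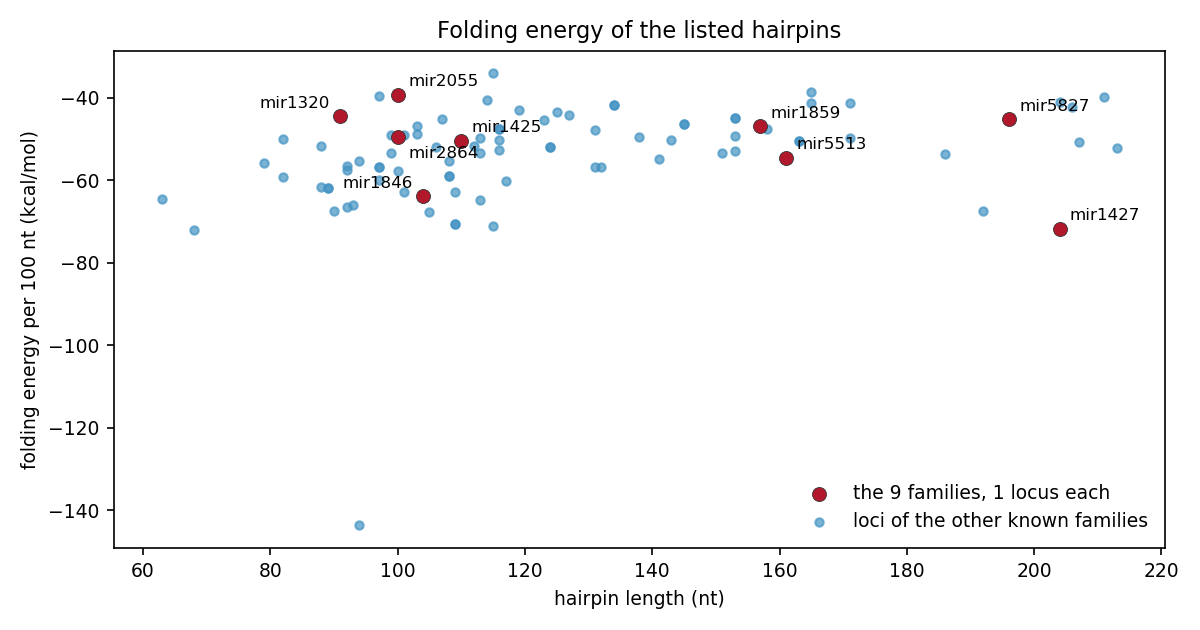
Deposited folding energy per 100 nt (vertical axis, kcal/mol) against hairpin length (horizontal axis, nt) for the 9 families (red, named) and the 84 loci of the other known families (blue). The 9 lie between -39.3 and -71.7 kcal/mol per 100 nt, the lowest being mir1427; the single blue point near the bottom is a mir535 locus listed at -144 kcal/mol per 100 nt, whose deposited energy of -135 kcal/mol compares with -68.2 kcal/mol from RNAfold.

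The 5 sequences whose pattern over the 4 libraries was most like that of mir1425 were taken from the 21 listed in all 4 with at least 10 reads in each, mir1425 included, by the Euclidean distance between log2 RPM profiles centred on their own means. The median distance from mir1425 was 2.03 and the farthest 5.41. The nearest was a mir160 sequence, at 0.56, of a family that targets auxin response factors, with 13.1 RPM in TS, 2.97 in CS, 1.98 in TR and 1.60 in CR. Like mir1425, it was highest in TS and lowest in CR. Next was mir529, at 0.61, which targets SPL transcription factors, with 14.8 RPM in TS, 7.70 in CS, 2.72 in TR and 3.48 in CR. A predicted sequence of chromosome 6 without a family name in the lists, tATTATAAgacgttttgact (bases 2 to 8 in capitals), called osa-miR12481 in the study, followed at 0.91, with 7.99 RPM in TS, 6.94 in CS, 3.22 in TR and 2.18 in CR. A mir171 sequence, of a family that targets GRAS transcription factors, came at 0.95, with 18.0 RPM in TS, 3.43 in CS, 4.78 in TR and 2.18 in CR, and a mir159 sequence, of a family that targets MYB mRNAs, at 1.23. By RPM, all 5 were highest in TS. In root, mir529 and mir159 were by RPM in the opposite order to mir1425. For mir529 this rests on 33 reads in TR and 24 in CR, so its order depends on the denominator. mir159 had 18.6 RPM in TR and 31.4 RPM in CR. In the study's Northern blots of Pokkali, osa-miR12481 fell in shoot and rose in root under NaCl. Its order in shoot by RPM was the opposite of the blot, but it rests on 78 reads in TS and 91 in CS. That order depends on the denominator, and no interval was formed for it. The blots also showed miR159a falling in both tissues under NaCl, while the listed mir159 sequence had 51.8 RPM in TS and 24.8 RPM in CS. Whether that probe matches the mir159 sequence named here was not checked.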

How the data were processed

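For quality control and trimming of the single-end reads the authors used Cutadapt, the UEA Small-RNA Workbench and the NGS QC Toolkit, then removed other non-coding RNA and searched miRBase and the rice genome. mFold is named for the structures of predicted precursors; which tool wrote the deposited hairpins is not given in the sources used here. Abundance as deposited is a read count, and the deposited RPM divides it by the reads used for prediction. The deposited log2 column is the log2 of the RPM, without a pseudocount, and was not used. Folding energies are deposited as scores in kcal/mol, G+C as percent and the fold test as a p-value by the authors, beside lengths and genome matches. Lines without content (4 in TS, 5 in CS, 3 in TR and 3 in CR) were left out.

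Each sequence was counted a single time per library. Ratios had exact conditional (Clopper-Pearson) 95% intervals, and calls needed at least 2-fold or at most 0.5-fold and an interval without 1. With 1 library per group, no p-value was computed. Alternatives were other denominators (raw, trimmed, NONCODE-unaligned or listed reads, median of ratios, TMM), a 1.5-fold rule, at least 10 reads, and added miRNA* reads. All members, overlapping entries and the 5 nearest patterns are named, by rule; the members and lists were chosen with earlier results of these data known. Python 3.11.15, numpy 2.4.6, pandas 2.3.3, scipy 1.17.1, matplotlib 3.10.9, R 4.3.3, edgeR 4.0.16 and RNAfold 2.7.2 were used.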

Additional observations from a re-analysis of the deposited data

Results flagged for a closer look

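The log2 ratio of mir1425 in NaCl-treated over control was 1.45 in shoot and 0.24 in root, and their difference of 1.21, with a counting interval of 1.08 to 1.34, marks an effect that was not alike in the 2 tissues with the deposited RPM. It is not particular to mir1425, since the median of this difference over the 19 known sequences listed in all 4 libraries was 1.15. With 1 library per group the interval holds no variation between plants. With raw reads the difference was 0.20 (0.07 to 0.33), while the share of raw reads that entered the prediction was 44.3% in TS, 53.6% in CS, 53.9% in TR and 32.4% in CR.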

How the results depend on the processing

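Of 69 recomputed values of the 7 results, 50 kept direction and side of the threshold. TMM factors ended the call of mir1425 in TS over CS (1.91). The shoot minus root difference of its log2 ratios fell under 1 with raw reads (0.20), trimmed high quality reads (0.26), reads unaligned with NONCODE (0.44), the median of ratios (0.47), TMM factors (0.27) and the reads of shared sequences (0.84), the last a scaling chosen after seeing the data. The ratio of mir1425 in CS over CR was called with raw reads (3.16), trimmed reads (2.93), reads unaligned with NONCODE (2.91), the reads of shared sequences (4.09) and the 1.5-fold rule (1.91). That of mir5827 in TS over CS was called with the sum of listed reads (2.69) and the reads of shared sequences (2.09). The ratio of mir2864 in TS over CS turned below 1 with raw reads (0.833), trimmed reads (0.850), reads unaligned with NONCODE (0.942), the median of ratios (0.750) and TMM factors (0.704), and could not be computed with at least 10 reads required. The percent of shared sequences called higher moved in TS over CS with TMM factors (14.6) and with at least 10 reads (41.9), in TR over CR with raw, trimmed or NONCODE-unaligned reads (17.4 each) and with at least 10 reads (7.14), and in CS over CR with raw reads (40.0), trimmed or NONCODE-unaligned reads (38.0 each) and the reads of shared sequences (46.0). Adding miRNA* reads changed no call of the 7 results. Apart from the 1.5-fold rule, the minimum of 10 reads and the added miRNA* reads, these settings differ from the deposited RPM in the denominator alone. No paired analysis was possible because the labels give no replicate numbers and each group has 1 library. Depth limits all families but mir1425, since those have 26 reads at most.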
